A study of Mus musculus with 3 samples.

Results

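Classical monocytes were the 1071 cells, of 29754 kept cells in the blood of C57BL/6J mice, that met a rule on marker genes. A kept cell had at least 500 unique molecular identifiers (UMIs, counted RNA molecules), at least 200 genes and at most 10% of its UMIs from mitochondrially encoded genes. A classical monocyte had less than 5% of its UMIs from S100a8 and S100a9, which are abundant in neutrophils, and at least 3 UMIs of Csf1r, Ms4a6c and F13a1 together. It had fewer than 3 UMIs of the B cell genes Cd79a, Cd79b and Ms4a1 and fewer than 2 of the T cell genes Cd3d, Cd3e, Cd3g and Trac. Its summed UMIs of Ly6c2, F13a1 and Vcan exceeded those of Ace, Treml4, Eno3 and Hpgd, genes of non-classical monocytes. The Sham library held 158 of these among 6891 kept cells, the CLP library 654 among 10840 and the HDCA+CLP library 259 among 12023. Members were thus selected on measured UMIs of these genes, whose levels are given below only as a description.

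Classical monocytes are short-lived phagocytes that leave the bone marrow through the chemokine receptor Ccr2 and carry high levels of the surface protein Ly6C in mice. They enter inflamed tissue and become macrophages or dendritic cells there, and some of those that stay in blood turn into patrolling non-classical monocytes, which carry Cx3cr1 and little Ly6C. They sense bacterial lipopolysaccharide through Cd14, Tlr4 and Ly96 (MD-2), and their responses run largely through NF-κB and the interferon pathways. In infection the marrow also releases young monocytes close to their dividing precursors.

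The cells came from 3 droplet libraries of blood digested with hyaluronidase and DNase I, 1 per group, with 12 h as the time on every label. C57BL/6J mice were either Sham, given CMC and CLP, or given HDCA and CLP. The abbreviations are not expanded by the submitters. Here CLP stands for caecal ligation and puncture, which causes sepsis from the gut, HDCA for the bile acid hyodeoxycholic acid and CMC for carboxymethylcellulose, a common vehicle. As CMC is not named for the Sham group, the CLP and Sham groups may differ in vehicle too, and how many mice made up a library is not stated. The cells are labelled mononuclear, with no gradient or sort stated, yet neutrophils numbered 256, 5313 and 9386. With 1 library per group no difference could be set against a spread between animals, so there is no test. All intervals are 95% intervals for counting error within these libraries, and a difference between groups cannot be told apart from one between libraries.

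Levels are UMIs summed over the classical monocytes of a library and scaled to CPM, counts per 1000000, from 2028284 (Sham), 10625680 (CLP) and 3676164 (HDCA+CLP) UMIs. The cells had medians of 13100, 14826 and 13560 UMIs and 3337, 3265 and 3153 genes. No classical monocyte shared its barcode with a classical monocyte of another library. Values listed without group names run in the order Sham, CLP, HDCA+CLP.

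The genes that chose the cells are a description only. Ly6c2 was at 1140, 2536 and 3093 CPM, F13a1, the coagulation factor XIII A chain, at 1337, 1010 and 814 CPM, and Vcan, the matrix proteoglycan versican, at 508, 493 and 566 CPM. Csf1r, the receptor for the growth factor that keeps monocytes alive, was at 311, 181 and 217 CPM and Ms4a6c at 1761, 1630 and 1524 CPM. The non-classical genes Ace, Treml4, Eno3 and Hpgd lay between 4.93 and 133 CPM (Sham), 1.22 and 14.5 CPM (CLP) and 0.816 and 25.8 CPM (HDCA+CLP). Ccr2, the marker that the rule did not use, was at 1241, 369 and 321 CPM. It was found in 98.7, 83.9 and 78.8% of the cells, and after every cell had been thinned to 2000 UMIs in 91.0, 44.6 and 41.6%, against 1.71, 4.99 and 2.45% of T cells, a level that free RNA could give. By thinned shares Ccr2 was thus above the T cell level in all 3 libraries, although the Ccr2 level of the CLP libraries was under that of Sham. Of 19 classical monocyte genes measured outside the rule, Ccr2 among them, 15 were lower in CLP than in Sham, as given below.

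Few cells lay at the edges of the rule. The classical and non-classical sums differed by a single UMI in 3 Sham, 9 CLP and 3 HDCA+CLP members, and 7, 20 and 6 cells with equal sums were left out. Those were counted as non-classical monocytes, the cells that met the rule except that the classical sum was not greater. Members with 4 to 5% of UMIs from S100a8 and S100a9 numbered 0, 10 and 13, and cells with 5 to 6% that were otherwise alike and left out numbered 0, 8 and 13. B or T cell genes alone kept out 21, 75 and 11 cells. Cells above 30000 UMIs numbered 0, 31 and 8, and simulated-doublet scores called 24 (15.2%), 42 (6.42%) and 8 (3.09%) of the members doublets, which were kept. The score called few mixed cells in HDCA+CLP, where 0.596% of called cells carried the markers of 2 classes, against 42.3% in Sham.

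Markers of other cells were not spread evenly over the libraries. The 12 neutrophil markers summed to 2689 CPM in Sham, with Ly6g, Camp, Ngp and Ltf at 0, to 14585 in CLP and to 18832 in HDCA+CLP. The 8 conventional dendritic cell markers summed to 142, 12.4 and 9.25 CPM, and 10 cells held 72.0% of their UMIs in Sham. The 7 natural killer (NK) cell markers summed to 2.96, 167 and 7.07 CPM, with 88.4% of the CLP UMIs in 10 cells, and the 6 platelet markers to 21.2, 22.4 and 173 CPM, with 99.2% of the HDCA+CLP UMIs in 10 cells. The 9 tissue macrophage markers summed to 135, 309 and 168 CPM, but Timd4, Vsig4, Clec4f and Cd5l, which mark resident macrophages, were at 0 in every library. T cell markers stayed between 9.79 and 18.9 CPM and B cell markers between 13.1 and 113 CPM. Below, the 10 cells with the most UMIs of a gene serve to show whether a few cells made its level. They are 10 of 158, 654 or 259 cells.

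Classical monocytes were 2.29% of kept cells in Sham (exact Clopper-Pearson interval 1.95 to 2.67%), 6.03% in CLP (5.59 to 6.50%) and 2.15% in HDCA+CLP (1.90 to 2.43%). The CLP share stood above the other two, and those of Sham and HDCA+CLP overlapped in their counting intervals. Neutrophils filled much of both CLP libraries, so the share was also taken over kept cells below the S100a8 and S100a9 limit. There it was 2.38% (2.03 to 2.78%), 11.8% (11 to 12.7%) and 9.82% (8.71 to 11%), higher in both CLP libraries than in Sham. T cells numbered 2712, 2830 and 1273 and B cells 2583, 264 and 272, so lymphocytes made up much of this denominator in Sham. With T and B cells left out as well, a choice made after seeing the data, the shares were 11.8% (10.1 to 13.6%), 26.9% (25.1 to 28.7%) and 23.7% (21.2 to 26.4%). Of classical and non-classical monocytes together, 54.3%, 89.2% and 91.5% were classical, with 133, 79 and 24 non-classical cells. The non-classical cells include 7, 20 and 6 with equal classical and non-classical sums. How many cells of each kind the blood held per volume was not measured.

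**Figure D1:**
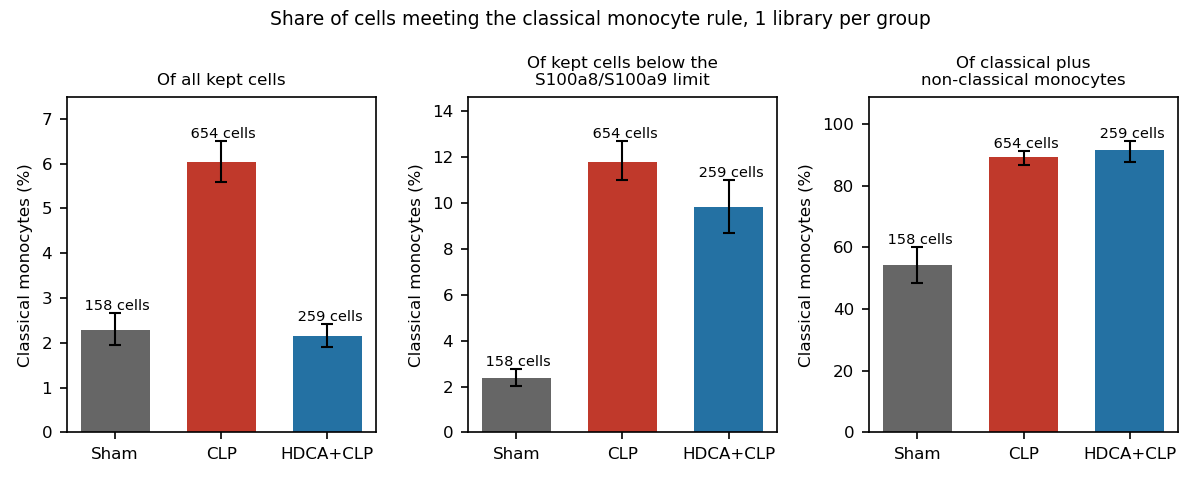
Share of cells meeting the classical monocyte rule in the Sham, CLP and HDCA+CLP libraries, in percent of 3 denominators. Bars are single libraries, error bars 95% Clopper-Pearson intervals for counting error, and numbers above the bars the classical monocytes. HDCA+CLP lay at 2.15% of all kept cells but at 9.82% of those below the S100a8 and S100a9 limit.

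In CLP against Sham, classical monocytes carried more of many acute-phase and inflammatory transcripts, some of which Sham cells nearly lacked. They carried less of Cx3cr1, Apoe and several mature monocyte genes. Of 8785 genes with at least 50 UMIs over both libraries, 934 (10.6%) were at least 2-fold higher and 1154 (13.1%) at least 2-fold lower in CLP. Gene lists used a minimum of 20 UMIs, at which 11.4% of 10115 genes were at least 2-fold higher and 15.1% lower, with 42.3% higher by any amount and a median log2 ratio of -0.15.

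Saa3, an acute-phase serum amyloid, was at 367 (Sham), 31311 (CLP) and 37692 (HDCA+CLP) CPM, a log2 ratio of CLP to Sham of 6.42 (6.31 to 6.52). Over single cells its quartiles were 0, 0 and 67.5 CPM for Sham, 7992, 24324 and 49694 for CLP and 14809, 32291 and 60561 for HDCA+CLP, so the middle ranges of Sham and of the CLP libraries did not overlap. In Sham, 10 cells held 74.2% of its UMIs. After thinning, Saa3 was found in 18.1, 91.8 and 96.5% of cells, against 0.0371, 17.2 and 6.61% of T cells. Neutrophils held 28.9, 757 and 1052 CPM of it.

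Sdc4, the heparan sulfate proteoglycan syndecan-4, was at 2.96 (Sham), 535 (CLP) and 517 (HDCA+CLP) CPM, from 6, 5688 and 1902 UMIs. The log2 ratio was 7.50 (6.38 to 8.95), and after thinning 0.645, 51.2 and 46.7% of cells had a UMI. Mmp14, a membrane-bound matrix protease, was at 1.97, 192 and 215 CPM, with a log2 ratio of 6.61 (5.25 to 8.49). Both genes were spread over many CLP cells, with 9.51% and 8.31% of their UMIs in 10 cells.

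Edn1, which encodes the vasoconstrictor endothelin-1, had 0 UMIs in Sham and stood at 126 and 103 CPM in the CLP and HDCA+CLP libraries. Its CLP level was 85.1-fold over a floor of 3 counts in the Sham library. Acod1, whose enzyme makes itaconate, had 0 UMIs in Sham and 112 and 265 CPM in the CLP libraries, 75.7-fold over that floor in CLP. Iigp1, an immunity-related GTPase, had 0 UMIs in Sham and 108 and 51.1 CPM, 73.1-fold over the floor in CLP. Ms4a3, a gene of granulocyte and monocyte precursors, had 0 UMIs and 64.6 and 60.9 CPM, 43.6-fold over the floor in CLP. These 4 genes were thus seen in both CLP libraries and in no Sham cell, at a Sham depth where a count of 0 allows 1.48 CPM.

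Spp1, the secreted protein osteopontin, had 3 UMIs in Sham and was at 1.48, 511 and 180.1 CPM, a log2 ratio of 8.43 (6.89 to 10.71) with a wide interval because of those 3 UMIs. C1qb, a chain of the complement starter C1q, was at 1.97, 163 and 71.8 CPM, with a log2 ratio of 6.37 (5.01 to 8.25). AA467197, also known as Nmes1, had 1 UMI in Sham and was at 0.493, 217 and 277 CPM, but neutrophils held 125, 958 and 797 CPM. Spp1 was found in 0, 21.8 and 11.3% of thinned cells and C1qb in 0.645, 12.1 and 8.95%, fewer than for Saa3.

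Of the genes lower in CLP, Cx3cr1, the fractalkine receptor, was at 176 (Sham), 5.27 (CLP) and 3.26 (HDCA+CLP) CPM, a log2 ratio of -5.06 (-5.49 to -4.65). It was found in 27.7, 0.933 and 0.778% of thinned cells. Apoe, an apolipoprotein that carries lipid out of macrophages, was at 1687, 143 and 49.5 CPM (log2 ratio -3.56, -3.65 to -3.47). Its thinned shares were 59.4, 13.5 and 7.78%, and 36.3% of the Sham UMIs lay in 10 cells.

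The other 8 genes most lower had log2 ratios between -4.48 and -3.30. Stxbp6, a syntaxin-binding protein, was at 79.9, 3.58 and 3.54 CPM. St8sia4, which adds polysialic acid, was at 195, 9.51 and 8.98 CPM, and Trf, the iron carrier transferrin, at 149, 13 and 7.34 CPM. Pi16, a peptidase inhibitor, was at 94.2, 7.15 and 12.5 CPM, Arl4c, a small GTPase, at 129.7, 11.5 and 13.6 CPM, Ppfia4 at 77.4, 5.65 and 4.90 CPM, Fam129a at 157, 14.5 and 15.8 CPM and Tmcc1 at 237, 24 and 40.0 CPM. In all 8, the level of HDCA+CLP lay nearer to that of CLP than to that of Sham.

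**Figure D2:**
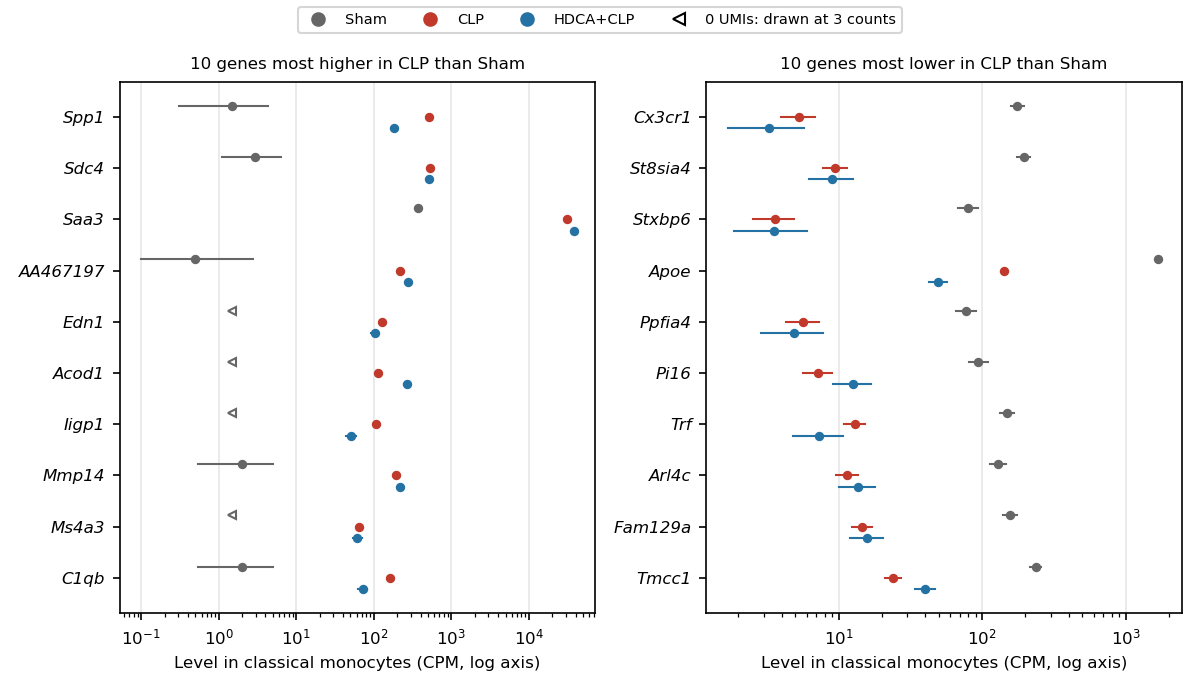
Levels in classical monocytes (CPM, log axis) of the 10 genes most higher and the 10 most lower in CLP than in Sham, for the Sham, CLP and HDCA+CLP libraries. Points are single libraries, lines exact 95% Poisson intervals for counting error, and open triangles libraries with 0 UMIs drawn at 3 counts. HDCA+CLP lay on the CLP side for all 20 genes, and Spp1 was lower there (180.1 against 511 CPM).

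Some of these ratios depended on which cells were kept. Without cells carrying other markers the log2 ratio of CLP to Sham was 7.21 for Saa3, 7.51 for Mmp14 and 7.26 for Spp1. Without called doublets it was 8.37 for Sdc4. The mean over cells gave 5.77 for C1qb, and Apoe was at -2.85 without cells with cell cycle transcripts. Each of these 6 ratios kept its direction there.

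Genes that mark classical monocytes but were outside the rule were lower in CLP more often than not. Of 19 with enough UMIs, 4 were higher, 2 of them at least 2-fold, and 9 were at least 2-fold lower, with a median log2 ratio of -0.70. Lyz2, the lysozyme of phagocytes, was at 26478, 5429 and 5903 CPM (log2 ratio -2.29, -2.30 to -2.27). Ccr2 had a log2 ratio of -1.75 (-1.82 to -1.68), and Gm9733 was at 337, 71.4 and 42.7 CPM. Hp, the haemoglobin scavenger haptoglobin, stood higher at 1373, 4712 and 4961 CPM (log2 ratio 1.78, 1.72 to 1.84), and so did Itgam (CD11b) at 312, 598 and 707 CPM. Ly6c1, nearly identical in sequence to Ly6c2, had 0, 10 and 5 UMIs, and reads of this pair may have been assigned to either.

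Genes of non-classical monocytes outside the rule split both ways, with 9 of 17 higher, 6 at least 2-fold higher, 6 at least 2-fold lower and a median of 0.27. Besides Cx3cr1, Ear2, a ribonuclease, was lower at 54.2, 9.41 and 12.5 CPM and Adgre4 at 35.0, 10.9 and 16.0 CPM. Fcgr4, an activating Fc receptor, was higher at 32.0, 329.7 and 295 CPM (log2 ratio 3.36, 3.01 to 3.74), and Dusp16, a phosphatase of MAP kinases, at 7.89, 75.4 and 119 CPM. Cd300e had 0 UMIs in Sham and was at 15.0 and 9.25 CPM. Bcl2a1d, at 5.42, 84.0 and 113 CPM, has near-identical copies, so its level is uncertain.

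Inflammatory cytokines, chemokines and enzymes stood furthest apart after the cell cycle genes. Of 30 measured, 24 were higher and 21 at least 2-fold higher, against 11.4% of all genes, with a median log2 ratio of 3.16. Ccl12, a chemokine that binds Ccr2, was at 1.97, 114 and 121 CPM (log2 ratio 5.86 (4.50 to 7.74), and 4.94 as a mean over cells). Ccl2, the main Ccr2 ligand, was at 76.9, 685 and 305 CPM (log2 ratio 3.16, 2.93 to 3.39), and 10 cells held 95.5% of its Sham UMIs. Tnf, the tumour necrosis factor, was at 5.92, 49.5 and 51.1 CPM, with 7.06, 58.1 and 79.4 CPM in neutrophils. Il1b was at 27.6, 266 and 467 CPM, with 2501, 148 and 297 CPM in neutrophils. The neutrophil attractant Cxcl2 was at 105, 1029 and 1701 CPM, with 1401, 1481 and 2723 CPM in neutrophils. These genes were thus also carried by the many neutrophils of the libraries, and the part of free neutrophil RNA in them was not tested.

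Some cytokines stayed low or came from few cells. Il6 had 0 UMIs in Sham and was at 8.66 and 7.07 CPM, with 77.2% of its CLP UMIs in 10 cells. Il12b had 0, 1 and 0 UMIs, so it was not detectable at this depth beyond single molecules. Ccl6 was lower at 985, 314 and 382 CPM and Ccl9 at 470.3, 312 and 271 CPM. Ccl24 was at 35.5, 1.22 and 0.816 CPM, all of it from 10 cells or fewer in Sham, the library in which dendritic cell markers were also concentrated in few cells. Its log2 ratio of -4.86 became -0.19 without cells carrying other markers and -0.47 without called doublets.

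Interferon-gamma response genes stood higher in CLP as a group. Of 26 measured, 22 were higher, 20 of them at least 2-fold, and Ifngr1 was at least 2-fold lower, with a median of 2.12. Of the 26, 21 held at least 20% of the level in neutrophils, T cells and B cells of the same library. The part of free RNA in this median was not tested. Cxcl10, which attracts T cells, was at 2.96 (Sham), 102 (CLP) and 148 (HDCA+CLP) CPM (log2 ratio 5.11 (3.99 to 6.56), and 5.93 without cells carrying other markers). Cd274, which encodes PD-L1, had 0 UMIs in Sham and was at 57.6 and 53.9 CPM, 38.9-fold over the floor of 3 counts in CLP. Gbp2, a guanylate-binding protein that attacks bacterial vacuoles, was at 9.86, 83.1 and 43.8 CPM (log2 ratio 3.08, 2.44 to 3.79), Gbp5, a relative of it, at 1.97, 30 and 21.2 CPM and Ifi47 at 29.6, 143 and 84.3 CPM. Fcgr1, the high-affinity IgG receptor, was at 68.5, 281 and 209.7 CPM, where neutrophils had 0, 5.59 and 5.62 CPM. T cells of the CLP library held 174 CPM of Gbp2 and 319 of Ifi47. Both receptor chains were lower: Ifngr1 was at 549.7, 156 and 203 CPM (log2 ratio -1.81, -1.92 to -1.70) and Ifngr2 at 154, 109 and 114 CPM. Tgtp1 and Tgtp2 are near-identical copies, and their levels are uncertain.

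Promoters of the genes that stood higher together are shown for 4 members, to let fixed letter patterns be read beside the levels. The patterns are forms of the sites that interferon and NF-κB factors are known to bind. Looser forms of these sites were neither searched nor marked. Each runs from 250 bases before to 50 bases after the RefSeq start, 5′ to 3′ along the gene, in build GRCm38.p6, with matches in capitals. The interferon-stimulated response element was searched as GAAA, any 2 bases and GAAA, the gamma-activated site as TTCNNNGAA (N being any base) and the κB site as GGGA, any base and TTTCC, on both strands, and a base could count for more than 1 motif. Gbp5 (chr3:142496684-142496983, plus strand) held 1 response element, 2 gamma-activated sites and 1 κB site, and Gbp2 (chr3:142620413-142620712, plus strand), Cxcl10 (chr5:92348840-92349139, minus strand) and Saa3 (chr7:46715627-46715926, minus strand) held 1 response element each.
Gbp5: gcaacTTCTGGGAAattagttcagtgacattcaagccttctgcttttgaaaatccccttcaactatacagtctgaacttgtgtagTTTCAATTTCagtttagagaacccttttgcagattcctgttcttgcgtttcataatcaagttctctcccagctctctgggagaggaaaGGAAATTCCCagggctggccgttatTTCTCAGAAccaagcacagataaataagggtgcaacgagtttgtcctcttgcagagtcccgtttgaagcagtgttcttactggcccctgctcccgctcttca
Gbp2: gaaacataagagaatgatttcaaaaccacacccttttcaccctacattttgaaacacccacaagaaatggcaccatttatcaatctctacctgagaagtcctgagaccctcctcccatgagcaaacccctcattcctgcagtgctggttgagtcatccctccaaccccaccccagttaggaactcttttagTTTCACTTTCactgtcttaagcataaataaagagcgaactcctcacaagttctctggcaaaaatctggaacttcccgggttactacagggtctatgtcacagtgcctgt
Cxcl10: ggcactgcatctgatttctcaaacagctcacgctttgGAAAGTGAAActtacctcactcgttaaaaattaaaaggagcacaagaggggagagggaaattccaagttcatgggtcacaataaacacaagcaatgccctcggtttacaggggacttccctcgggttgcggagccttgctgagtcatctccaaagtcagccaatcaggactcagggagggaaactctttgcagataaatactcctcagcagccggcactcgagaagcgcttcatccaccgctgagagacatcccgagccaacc
Saa3: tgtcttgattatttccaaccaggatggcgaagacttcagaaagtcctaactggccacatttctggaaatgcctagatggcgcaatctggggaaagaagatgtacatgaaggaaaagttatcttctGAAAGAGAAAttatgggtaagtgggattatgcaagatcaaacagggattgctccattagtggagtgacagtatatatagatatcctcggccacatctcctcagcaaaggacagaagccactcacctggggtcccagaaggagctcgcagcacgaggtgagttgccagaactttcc

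Of the interferon-gamma response list, 18 promoters were in the table; 11 (61.1%) held the response element and 8 (44.4%) a gamma-activated site, against 3.99% and 9.55% of all 27025 promoters of this length. Of 33 promoters of the type I interferon list, 18 (54.5%) held the response element. Among the 24 of the inflammatory list, 4 (16.7%) held it, and 4 (16.7%; Il6, Cxcl1, Cxcl2 and Cxcl3) held the κB site, which 0.466% of all promoters held. None of 19 cell cycle promoters held the response element. A match describes letters in this window and is no evidence of binding in these cells. A promoter without a match may still hold a looser form of the site.

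Type I interferon response genes were higher by less. Of 40 measured, 31 were higher, 15 at least 2-fold and none at least 2-fold lower, with a median of 0.64. Ifit1, which binds foreign RNA, was at 1.48, 31.3 and 30.7 CPM, and Ifi205 at 6.90, 71.1 and 91.9 CPM (log2 ratio 3.36, 2.61 to 4.24). Isg15, a ubiquitin-like protein, was at 40.9, 206 and 297 CPM, and Ifitm1 at 164, 753 and 592 CPM. Trim30a was lower at 118, 74.1 and 73.7 CPM and Irf9, a transcription factor of the type I response, at 75.4, 49.0 and 49.8 CPM. Bst2 was at 247, 199.9 and 276 CPM, and its log2 ratio of -0.31 became 0.24 when called doublets were left out.

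Toll-like receptor 4 and its partner MD-2 stood within 2-fold of their Sham levels, and Cd14 above its Sham level. Tlr4 was at 18.2 (Sham), 12.2 (CLP) and 9.25 (HDCA+CLP) CPM, from 37, 130 and 34 UMIs (log2 ratio -0.58, -1.11 to -0.01). Ly96, which encodes MD-2, the chain that holds lipopolysaccharide, was at 46.3, 39.9 and 32.9 CPM (log2 ratio -0.22, -0.54 to 0.12). Cd14, which hands lipopolysaccharide to that pair, was higher at 95.2, 268 and 310.1 CPM (log2 ratio 1.49, 1.28 to 1.71) and was found in 12.9, 37.6 and 45.9% of thinned cells. Over the 35 receptors and adaptors measured, 20 were higher, 9 at least 2-fold, 4 at least 2-fold lower, and the median was 0.09. Irak3, which damps this signalling, was at 30.6, 126 and 165 CPM, Pycard (ASC), the inflammasome adaptor, at 430.4, 1173 and 1218 CPM and the lectin receptor Clec4d at 33.5, 193 and 159 CPM. Members that were lower included Ly86 (MD-1) at 396, 144 and 146 CPM. Tlr8, a receptor for RNA, was at 19.2, 5.83 and 9.25 CPM and the signalling kinase Irak4 at 62.1, 24.4 and 29.7 CPM. The bile acid receptor genes Gpbar1 and Nr1h4 had 0 UMIs in all 3 libraries, where 3 counts would be 1.48, 0.282 and 0.816 CPM.

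Genes of NF-κB and its feedback inhibitors stood on both sides of their Sham levels. The subunit genes Nfkb1, Nfkb2, Rel, Rela and Relb lay within 2-fold of Sham. Nfkb1 was at 138, 110.1 and 109.9 CPM and Rela at 40.4, 43.6 and 42.7 CPM. Nfkbia, the inhibitor IκBα, was at 465, 1628 and 1379 CPM (log2 ratio 1.81, 1.71 to 1.90), Tnfaip3 (A20) at 20.7, 124 and 108 CPM, Tnip1 at 30.6, 130.3 and 131 CPM and Tnip3 at 2.47, 66.2 and 35.1 CPM. Other inhibitors were lower, with Cyld, a deubiquitinase, at 66.6, 23.7 and 28.6 CPM and Nfkbid at 11.8, 7.25 and 6.26 CPM (log2 ratio -0.71 (-1.38 to 0.02), and -1.32 without cells carrying other markers). Of the 16 genes of this list, 12 were higher, 6 at least 2-fold and 1 at least 2-fold lower, with a median of 0.45.

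Anti-inflammatory and tolerance genes stood on both sides, with 18 of 32 higher, 14 at least 2-fold higher and 6 at least 2-fold lower. Il1r2, the decoy receptor of interleukin-1, was at 60.1, 669 and 650.4 CPM, while neutrophils held 479.8, 1298 and 1200 CPM. Il1rn, its antagonist, was at 5.92, 146 and 141 CPM, with 124, 102 and 163 CPM in neutrophils. Mt2, a metal-binding metallothionein, had 1 UMI in Sham and was at 0.493, 60.5 and 65.6 CPM. Anxa1 was lower at 595, 255 and 251 CPM. Arg1, a gene of alternatively activated macrophages, was at 64.1, 6.02 and 5.98 CPM, and Mrc1, the mannose receptor, at 24.7, 3.76 and 0.816 CPM. Every Sham UMI of this pair lay in 10 cells or fewer, and the log2 ratios of -3.41 and -2.71 became 1.94 and 2.85 without called doublets.

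Complement and phagocytosis genes were higher in 19 of 28, with 12 at least 2-fold higher and 4 at least 2-fold lower and a median of 0.64. C3ar1, the receptor for C3a, had 3 UMIs in Sham and was at 1.48, 62.4 and 26.7 CPM, and Stab1, a scavenger receptor, had 1 and was at 0.493, 28.0 and 18.8 CPM. Trem2, a lipid receptor of macrophages, was lower at 71.5, 18.7 and 13.1 CPM.

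MHC class I genes stood higher together, in 19 of 20, with 7 at least 2-fold and a median of 0.68. H2-K1 was at 542, 1234 and 1423 CPM (log2 ratio 1.19, 1.10 to 1.28) and the proteasome activator Psme2 at 207, 453 and 471 CPM. H2-Q7 was at 5.92, 308 and 371 CPM and H2-Q6 at 0.986, 83.5 and 98.2 CPM. These are near-identical copies, so their levels are uncertain, and T cells of the CLP library held 685 and 224 CPM. H2-T23 was lower at 240.1, 160.3 and 171 CPM.

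MHC class II genes had no single direction. Of 15, 6 were higher and the median was -0.50, which became 0.64 without called doublets and 0.59 without cells carrying other markers. Only 7 of the 15 passed the free RNA limit, at least 20% of the level in neutrophils, T cells and B cells of the same library. H2-Ab1 was at 223, 337 and 181 CPM (log2 ratio 0.60, 0.45 to 0.74), and the ratio became 1.75 without called doublets and 3.45 without cells carrying other markers. In Sham, 94.9% of its UMIs lay in 10 cells, against 26.3% in CLP, and after thinning 8.39, 20.4 and 11.3% of cells had a UMI. H2-DMa, which loads peptides, was lower at 246, 74.3 and 47.1 CPM, with 27.5% of its Sham UMIs in 10 cells. The costimulatory gene Cd40 was at 4.44, 17.9 and 10.1 CPM.

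Migration and adhesion receptors included genes at both ends. Fpr1, a receptor for bacterial formyl peptides, was at 6.41, 80.3 and 119 CPM (log2 ratio 3.65 (2.86 to 4.56), and 4.35 without cells carrying other markers), with 170.1, 196 and 256 CPM in neutrophils. Its relative Fpr2 was at 61.1, 521 and 482 CPM (log2 ratio 3.09, 2.83 to 3.36), with 320.3, 620.1 and 620.1 CPM in neutrophils. Cxcr4, which retains cells in the marrow, was lower at 51.3, 12.1 and 12.0 CPM, and Itga4 at 359, 151 and 268 CPM. Of 28 measured, 12 were higher, 5 at least 2-fold, and 9 were at least 2-fold lower. The median was -0.08, which became 0.07 under size factors. Csf1r, which the rule used to choose the cells, was among the 28.

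Antimicrobial and oxidase genes were higher in 19 of 27, with 13 at least 2-fold higher, 2 at least 2-fold lower and a median of 0.83. Sod2, the mitochondrial superoxide dismutase, was at 106, 2373 and 2570 CPM (log2 ratio 4.49, 4.30 to 4.69), above the 20.5, 228 and 262 CPM of neutrophils. Lcn2, the iron-scavenging lipocalin, was at 365, 6189 and 7776 CPM, but neutrophils held 6734, 20754 and 23460 CPM, and 0.593, 28.0 and 46.7% of thinned T cells had a UMI against 27.7, 91.8 and 96.1% of classical monocytes. Ngp, Camp and Ltf of neutrophil granules were at 0 in Sham and at 85.1, 34.7 and 12.9 CPM in CLP. In T cells of that library they were at 171, 78.7 and 29.5 CPM, so they were not read as expression by monocytes. Cybb, the catalytic subunit of the NADPH oxidase, was at 1150, 795 and 983 CPM.

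Of 23 glycolysis and hypoxia genes, 17 were higher, 5 at least 2-fold, with a median of 0.52. Ldha was at 243, 519 and 543 CPM, Hif1a at 74.4, 164 and 213 CPM and Pfkfb3 at 13.8, 50.2 and 64.5 CPM, while Hk2 was lower at 103, 31.4 and 37.3 CPM and Pfkfb4 at 48.8, 10.6 and 8.98 CPM. Of 24 cholesterol and lipid genes, 13 were higher, 9 at least 2-fold, and 5 were at least 2-fold lower. Plin2, which coats lipid droplets, was at 106, 766 and 821 CPM (log2 ratio 2.85, 2.65 to 3.05), Sqle of sterol synthesis had 3 UMIs in Sham and was at 1.48, 27 and 8.16 CPM, and the liver X receptor Nr1h3 was at 2.47, 16.5 and 13.9 CPM. The cholesterol exporter Abcg1 was lower at 40.9, 2.45 and 4.62 CPM.

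Of 11 coagulation and fibrinolysis genes, 5 were higher and the median was -0.17. F13a1, which the rule used to choose the cells, was among the 11 and was lower. F10, factor X, was at 224, 477 and 525 CPM and S100a10, a plasminogen receptor chain, at 851, 1734 and 1327 CPM. Serpinb2, an inhibitor of plasminogen activators, was lower at 43.4, 6.87 and 6.53 CPM and F5, factor V, at 27.1, 6.96 and 8.98 CPM. F3, which encodes tissue factor, had 0, 0 and 1 UMIs and was not detectable at this depth beyond a single molecule.

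Immediate early genes, known as fast responders to many stimuli, were lower in CLP. Of 21, 6 were higher, 2 at least 2-fold, and 5 were at least 2-fold lower, with a median of -0.62. Jun was at 578, 225 and 292 CPM, Fos at 1332, 579 and 737 CPM, Ier5 at 342, 88.5 and 84.1 CPM and Btg2 at 527, 145 and 145 CPM. Hsp90aa1 was higher at 140.0, 373 and 380.0 CPM and Ier3 at 70.0, 195 and 259 CPM.

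**Figure D3:**
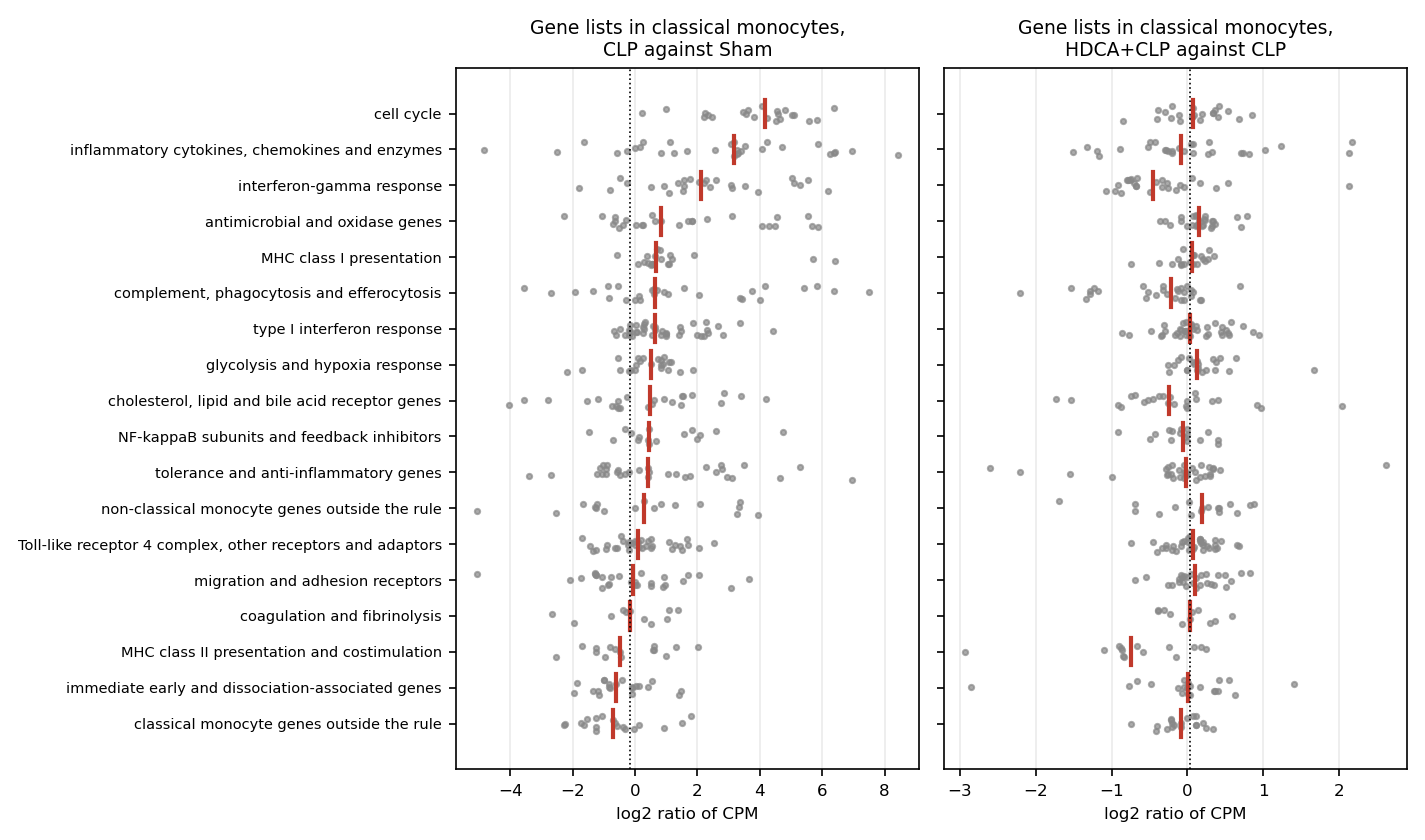
Log2 ratios of CPM in classical monocytes for the members of 18 gene lists, CLP against Sham (left) and HDCA+CLP against CLP (right). Each point is a gene with at least 20 UMIs over both libraries, genes at 0 being set against a floor of 3 counts, red lines are list medians and the dotted line is the median of all genes (-0.15 and 0.04). Medians spread from -0.70 to 4.15 on the left and from -0.74 to 0.19 on the right.

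All 22 cell cycle genes measured were higher in CLP than in Sham, 20 of them at least 2-fold, with a median log2 ratio of 4.15. Ccnb2 was at 0.986, 81.3 and 71.0 CPM and Birc5, which encodes survivin, at 1.97, 113 and 92.2 CPM (log2 ratio 5.84 (4.48 to 7.71), and 2.10 without cells with 2 or more UMIs of the 6 genes below). Ccnb1, a cyclin of mitosis, had 0 UMIs in Sham and was at 41.7 and 35.9 CPM in the CLP libraries. The centromere gene Cenpf had 0 UMIs in Sham and was at 49.9 and 37.8 CPM. Mki67 was at 8.38, 92.0 and 123 CPM. At least 2 UMIs of Mki67, Top2a, Birc5, Cdk1, Ccna2 and Ccnb2 were found in 3 of 158 Sham cells (1.90%, 0.393 to 5.45%), 219 of 654 CLP cells (33.5%, 29.9 to 37.2%) and 84 of 259 HDCA+CLP cells (32.4%, 26.8 to 38.5%). After thinning, at least 1 UMI of these 6 genes was found in 1.94%, 24.9% and 24.9% of classical monocytes and in 2.22%, 4.63% and 6.04% of T cells. The shares of both CLP libraries were thus above the Sham share and above the level in T cells, and their intervals overlapped each other.

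Cells with these transcripts carried granule protease genes of early granulocyte and monocyte precursors. In CLP, Elane (neutrophil elastase) was at 193 CPM in cells with at least 2 of those UMIs and at 28.7 CPM in the others, and Mpo (myeloperoxidase) at 105 and 1.49 CPM. The same pairs were 243 and 18.9 CPM and 112 and 1.42 CPM in HDCA+CLP. Ms4a3 was at 129.9 and 14.9 CPM in CLP and Ctsg at 150.3 and 3.48 CPM. The classical marker Ly6c2 was at 2887 and 2269 CPM, F13a1 at 1106 and 937 CPM and Ccr2 at 353 and 381 CPM. The rule for members used Ly6c2 and F13a1 but not Ccr2.

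Response genes lay on both sides in those cells. Saa3 was at 16704 CPM in CLP cells with cell cycle transcripts and at 42418 in the others, Hmox1, whose enzyme degrades haem, at 199.8 and 950.3, H2-Ab1 at 68.4 and 541 and C1qb at 48.4 and 250.3. Csf1r was at 110.0 and 235 CPM. Acod1 was at 56.9 and 154 CPM in CLP and at 242 and 282 in HDCA+CLP. Other response genes were higher in the CLP cells with cell cycle transcripts, with Ccl2 at 889 and 530.1 CPM, Ptx3 at 58.8 and 14.4 and Nos2 at 21.1 and 13.9, and Spp1 was at 501 and 519. In HDCA+CLP, Ptx3 was at 281 and 48.3 CPM, Ccl2 at 286 and 319 and Nos2 at 62.0 and 84.3. The cells with cell cycle transcripts had medians of 19401 UMIs against 13604 in CLP and 17276 against 12272 in HDCA+CLP, and the part of depth in this split was not tested. Of them, 9.13% against 5.06% of the others were called doublets in CLP and 0% against 4.57% in HDCA+CLP. The limit was chosen after values were seen, and these are cells of 1 library, not replicates.

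**Figure D4:**
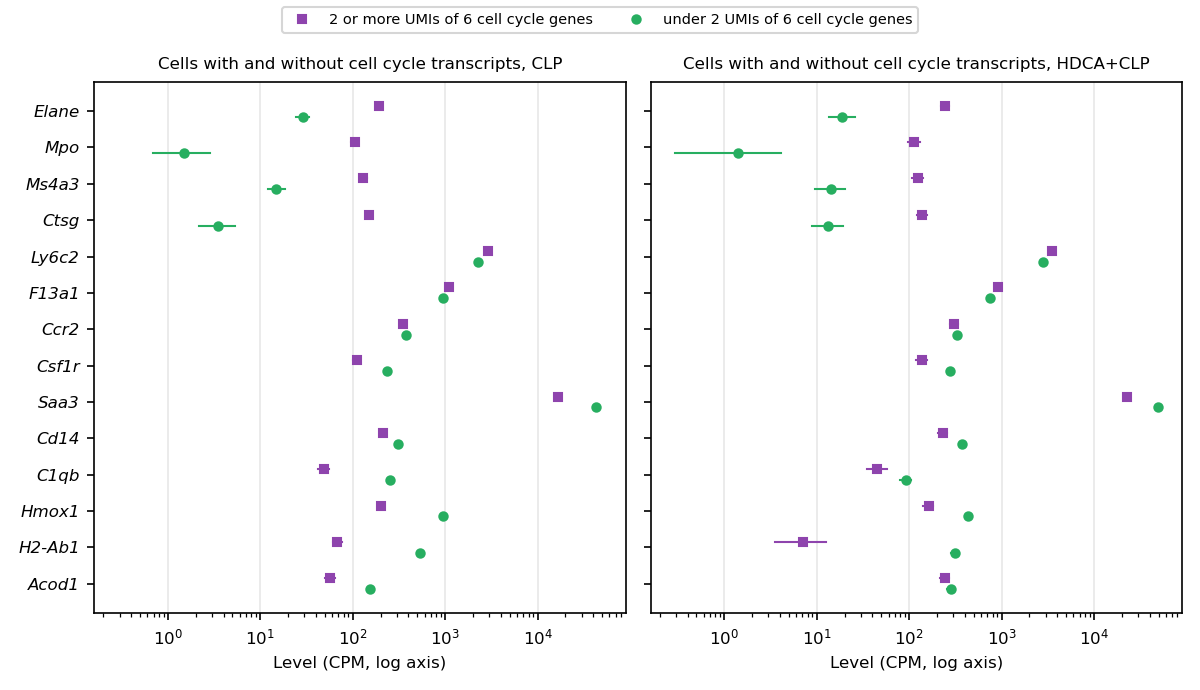
Levels (CPM, log axis) of 14 genes in classical monocytes of the CLP and HDCA+CLP libraries with at least 2 UMIs of 6 cell cycle genes (squares, 219 and 84 cells) and with fewer (circles, 435 and 175 cells). Lines are exact 95% Poisson intervals for counting error. Elane, Mpo, Ms4a3 and Ctsg were higher and Saa3, Hmox1 and H2-Ab1 lower in the squares of both libraries. Over all members, 10 cells held 38.1% (CLP) and 54.9% (HDCA+CLP) of the UMIs of Elane, Mpo, Ms4a3, Ctsg and Prtn3 together.

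Of the precursor genes, Elane, Mpo, Ctsg and Ms4a3 were nearly absent in Sham, but Prtn3 was at 52.3 CPM there, from 106 UMIs. In cells with under 2 cell cycle UMIs, the CLP to Sham log2 ratio of Prtn3 was 0.71 (0.40 to 1.04). Elane had 4, 1061 and 420 UMIs (1.97, 99.9 and 114 CPM) and Mpo 2, 489 and 179 (0.986, 46.0 and 48.7 CPM), with 56.3% and 78.7% of the CLP UMIs in 10 cells. At least 2 UMIs of Mpo, Elane, Prtn3, Ctsg and Ms4a3 were found in 15.2% of Sham, 35.8% of CLP and 34.4% of HDCA+CLP cells, and at least 1 after thinning in 9.68%, 20.2% and 23.7%, against 0% to 0.253% of T cells. When cells with 2 or more UMIs of these or of another of the marker sets were left out, the CLP to Sham log2 ratios of Elane, Mpo and Ms4a3 became -0.92, -1.34 and -0.51. This choice removes the cells that carry them.

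Between HDCA+CLP and CLP far fewer genes stood apart. Of 8868 genes with at least 50 UMIs, 58 (0.654%) were at least 2-fold higher and 104 (1.17%) at least 2-fold lower in HDCA+CLP, 162 (1.83%) in all, and 56.2% were higher by any amount. At 20 UMIs, as used for lists, these shares were 1.57% and 2.73%, with 55.7% higher and 44.3% lower by any amount and a median log2 ratio of 0.04. Both comparisons share the CLP library, so the values are set side by side and no relation between them was computed. The acute-phase and cell cycle transcripts were close to their CLP levels, while Spp1, Ccl2, the C1q chains and most class II genes were lower and Nos2, Acod1 and Il1b were higher.

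Nos2, the inducible nitric oxide synthase, was at 0 (Sham), 17.0 (CLP) and 74.8 (HDCA+CLP) CPM, from 0, 181 and 275 UMIs. Its CLP level was 11.5-fold over the floor for a Sham count of 0. The log2 ratio of HDCA+CLP to CLP was 2.13 (1.86 to 2.41), and after thinning 0, 3.58 and 6.61% of cells had a UMI, with 57.8% of the HDCA+CLP UMIs in 10 cells. Neutrophils held 2.12, 26.1 and 38.7 CPM. Acod1, at 112 and 265 CPM in the CLP libraries, had a log2 ratio of 1.24 (1.12 to 1.36), which became 0.53 without cells carrying other markers, and was found in 0, 14.9 and 22.6% of thinned cells. Its level in neutrophils was alike in both, at 74.9 and 80.0 CPM.

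Il1b, the pro-inflammatory cytokine interleukin-1β, was at 266 and 467 CPM (log2 ratio 0.81, 0.72 to 0.90), and neutrophils at 148 and 297. It was found in 4.52, 21.8 and 33.5% of thinned cells, against 0.334, 0.507 and 1.06% of T cells. Itga4, an integrin chain that binds VCAM-1, was at 359, 151 and 268 CPM (log2 ratio 0.83, 0.71 to 0.95), between CLP and Sham in HDCA+CLP. Ceacam1 was at 77.4, 50.1 and 109.9 CPM (log2 ratio 1.13, 0.94 to 1.32). Itga4 and Ceacam1 were spread over many cells, with thinned shares of 50.3, 24.4 and 36.6% and 11.6, 9.80 and 19.1%.

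Like Nos2, with most of its HDCA+CLP UMIs in 10 cells, the other genes most higher in HDCA+CLP came from a few cells. Ptx3, the soluble pattern receptor pentraxin 3, was at 33.6 and 147 CPM, with 85.0% of its HDCA+CLP UMIs in 10 cells. The platelet genes Ppbp and Pf4 were at 52.0 and 81.3 CPM, with 100% and 99.7% in 10 cells, and their log2 ratios of 8.11 (6.24 to 11.16) and 2.0 (1.74 to 2.26) became -0.19 and -0.60 when cells with other markers were left out. The histone genes Hist1h1b and Hist1h4d, at 232 and 59.0 CPM against 75.7 and 21.2 CPM in CLP, had 91.4% and 70.5% of their UMIs in 10 cells. Their log2 ratios of 1.61 and 1.48 became -1.16 and 0.09 without cells with cell cycle transcripts. Reads of near-identical histone genes may have been assigned to either.

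Of the genes lower in HDCA+CLP, Spp1 was at 511 and 180.1 CPM (CLP and HDCA+CLP), a log2 ratio of -1.51 (-1.62 to -1.39) that became -0.58, under 2-fold, without cells carrying other markers. Cells with at least 10 Spp1 UMIs numbered 92 of 654 (14.1%, 11.5 to 17.0%) and 19 of 259 (7.34%, 4.47 to 11.2%), and none of 158 in Sham, which allows up to 2.31%. They held 90.1% and 83.4% of the Spp1 UMIs, and their Spp1 level was 2480 and 1784 CPM. Both the share of such cells and their level had lower values in HDCA+CLP. As the cells were picked by their Spp1 UMIs, their Spp1 values are a description only. The median depth of the picked cells was 18852 UMIs against 14157 in the other CLP cells, and 14531 against 13400 in HDCA+CLP, and the part of depth was not tested. The CLP cells of this kind also held 45.0% of Ccl2 UMIs and 62.4% of Mpo UMIs, and their Ccl2 level was 1661 CPM against 463 in the other cells. In HDCA+CLP these shares were 12.7% and 10.1%. Il1b, which was higher in HDCA+CLP over all members, was lower in the cells with at least 10 Spp1 UMIs, at 382 and 129 CPM (log2 ratio -1.56, -2.06 to -1.10), and higher in the others, at 240.2 and 498 CPM (1.05, 0.96 to 1.14). The value of 129 CPM rests on 40 UMIs in 19 cells of 1 library. The limit of 10 UMIs was chosen after values were seen.

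Ccl2 was at 685 and 305 CPM, a log2 ratio of -1.17 (-1.26 to -1.08), and was found in 5.16, 33.7 and 20.6% of thinned cells. C1qb was at 163 and 71.8 CPM (log2 ratio -1.18, -1.38 to -1.0). The other C1q chains followed, with C1qa at 3.45, 37.2 and 14.7 CPM and C1qc at 2.96, 39.6 and 16.3 CPM. C3ar1 was at 62.4 and 26.7 CPM (log2 ratio -1.23, -1.55 to -0.92), and Hmox1 at 80.9, 626 and 316 CPM (log2 ratio -0.99, -1.08 to -0.90). Timp1, an inhibitor of metalloproteinases, was at 2.47, 80.2 and 38.4 CPM, with a log2 ratio of -1.06 that became -0.39 without cells carrying other markers, and Dmkn (dermokine) at 4.44, 95.1 and 45.4 CPM. Apoe, already lower in CLP, was lower again at 49.5 CPM (log2 ratio -1.53, -1.76 to -1.31). The intervals of the ratios given lay below 0 over all members. In the cells with 2 or more cell cycle UMIs, the ratios of C1qb, C3ar1 and Hmox1 were -0.09 (-0.50 to 0.30), -0.15 (-0.78 to 0.44) and -0.31 (-0.51 to -0.10), and in the others -1.45, -1.55 and -1.14. The difference between these cells was not tested. Apart from Apoe, the genes stood in HDCA+CLP between their CLP and Sham levels.

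Ptges, the prostaglandin E synthase, was at 0.493, 41.3 and 16.6 CPM and the haemoglobin scavenger receptor Cd163 at 2.96, 19.9 and 6.80 CPM. Il10 had 53 UMIs in CLP (4.99 CPM), 84.9% of them in 10 cells, and 0 in Sham and in HDCA+CLP, where 3 counts would be 0.816 CPM. AY036118 was at 305, 471 and 200.5 CPM. It was lower in other cells of the HDCA+CLP library too, at 693 and 292 CPM in T cells of CLP and HDCA+CLP.

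The interferon-gamma response genes were lower in HDCA+CLP in 21 of 26, although Iigp1 alone passed 2-fold lower and Nos2 alone 2-fold higher. Their median was -0.46 against 0.04 over all genes. Of the 26, 20 passed the free RNA limit, and the part of free RNA in this median was not tested. Iigp1 was at 108 and 51.1 CPM (log2 ratio -1.08, -1.31 to -0.86), Gbp2, whose promoter is printed above, at 83.1 and 43.8 (-0.92, -1.18 to -0.68) and Ifi47 at 143 and 84.3 (-0.76, -0.94 to -0.59). Cxcl10, with a response element of the same kind, was at 102 and 148 CPM (0.53, 0.38 to 0.68), but 77.1% of its HDCA+CLP UMIs lay in 10 cells and the ratio became -0.44 without cells carrying other markers. Cd274 was at 57.6 and 53.9 CPM. Of 40 type I interferon genes, 22 were higher and none passed 2-fold, and their median of 0.04, or -0.01 under size factors, was that of all genes. Isg15 was at 206 and 297 CPM (0.53, 0.42 to 0.63) and Ifi204 at 340.1 and 244 (-0.48, -0.59 to -0.37).

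Of 14 MHC class II genes, 11 were lower in HDCA+CLP, 2 of them at least 2-fold, with a median of -0.74. Only 8 of the 14 passed the free RNA limit, and the part of free RNA in this median was not tested. H2-Ab1 was at 337 and 181 CPM (log2 ratio -0.90, -1.02 to -0.78), Cd74, the invariant chain, at 1329 and 736 (-0.85, -0.91 to -0.79), and H2-DMa at 74.3 and 47.1 (-0.66, -0.91 to -0.42). In HDCA+CLP 66.2% of H2-Ab1 UMIs lay in 10 cells, and 8.39, 20.4 and 11.3% of thinned cells had a UMI. MHC class I genes were at a median of 0.06, with H2-K1 at 1234 and 1423 CPM.

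Inflammatory genes had a median of -0.08, with 13 of 28 higher, 4 at least 2-fold higher and 4 at least 2-fold lower. Complement genes had a median of -0.22 and 7 of 28 at least 2-fold lower. Cholesterol and lipid genes had a median of -0.24, with Sqle at 27 and 8.16 CPM (log2 ratio -1.73, -2.32 to -1.18) and the fatty acid binding protein Fabp5 at 197 and 104 (-0.92, -1.08 to -0.76), while Plin2 was at 766 and 821. Cell cycle genes had a median of 0.08 and none past 2-fold, but Birc5, Cenpf and Ube2c turned from lower to higher when cells with 2 or more cell cycle UMIs were left out.

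The lipopolysaccharide receptor genes stood within 2-fold of their CLP levels. Tlr4 was at 12.2 and 9.25 CPM (log2 ratio -0.40, -0.99 to 0.15), with an interval that included 0, Ly96 at 39.9 and 32.9 (-0.28, -0.58 to 0.02) and Cd14 at 268 and 310.1 (0.21, 0.11 to 0.31). Of the 35 receptors and adaptors, 23 were higher and none past 2-fold, with a median of 0.08. Nlrp3, the inflammasome sensor, was at 43.4 and 69.6 CPM (0.68, 0.46 to 0.91), Irak3 at 126 and 165 (0.39, 0.24 to 0.52), and Clec4n at 29.6 and 17.7 (-0.74, -1.15 to -0.35). Saa3, at 31311 and 37692 CPM, was 1.20-fold higher, and Ly6c2 had a log2 ratio of 0.29 (0.25 to 0.32).

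**Figure D5:**
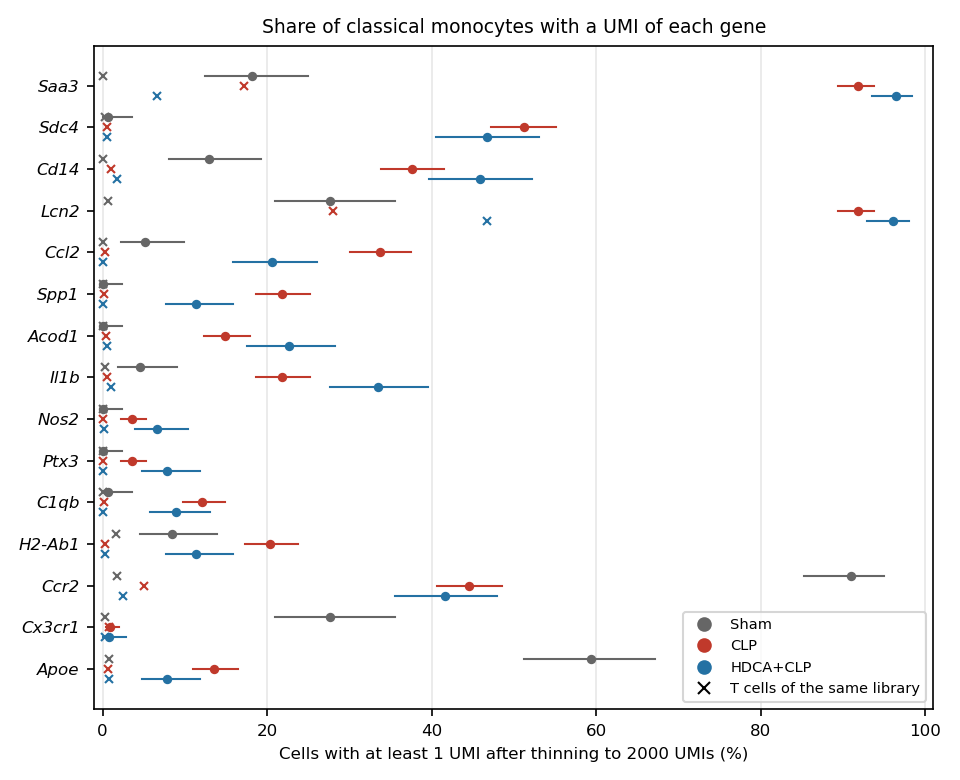
Share of classical monocytes with at least 1 UMI of 15 genes after thinning each cell to 2000 UMIs, for 155 Sham, 643 CLP and 257 HDCA+CLP cells, leaving out 3, 11 and 2 shallower cells. Circles are single libraries with exact 95% Clopper-Pearson intervals, and crosses the T cells of the same library, a level that free RNA can give. Spp1 was found in 0, 21.8 and 11.3% of cells and Il1b in 4.52, 21.8 and 33.5%.

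Non-classical monocytes, the most similar cells, were few, with 133, 79 and 24 cells, and the difference between the classes was not tested. Among the non-classical cells, 7, 20 and 6 had equal classical and non-classical sums. Saa3 was at 28.6, 12350 and 17637 CPM in the non-classical class, so it was also far higher in both CLP libraries. Cx3cr1 was at 505, 56.3 and 30.6 CPM and Apoe at 4568, 403 and 751, lower in CLP as in classical monocytes. Interferon-gamma response genes had a median log2 ratio of 2.09 in CLP over 19 genes, where classical monocytes had 2.04 for the same genes. Edn1 was at 0, 49.5 and 91.9 CPM.

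Other genes differed in value between the classes. Spp1 had 0 CPM in Sham and CLP non-classical cells and 7.66 in HDCA+CLP, Timp1 0, 0 and 7.66, and C3ar1 and Dmkn 0 in all 3. Ccl2 was at 0, 25.6 and 38.3 CPM there. All 8 MHC class II genes measured in non-classical cells were higher in HDCA+CLP than in CLP, with a median of 0.60, where the same genes had a median of -0.76 in classical monocytes. That comparison rests on 24 HDCA+CLP cells and was made without the free RNA limit.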

How the data were processed

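Droplet 3′ single-cell RNA libraries (10x v3 chemistry, per the labels' protocols) of blood from 3 groups were analysed, 1 library per group. The values are UMI counts per gene and cell barcode as the authors deposited them, for 31053 genes, made with Cell Ranger 5.0.1 per the file headers. Seurat 4.0.6, R 4.0.3 and the build mm39 are named in the submitters' processing notes, with no role given. The deposited barcodes, 7159, 11387 and 12205, held no cell names, so cells were taken by the marker rule in the opening of the report. Doublets were scored by nearest neighbours among simulated doublets and kept. Free RNA was not removed.

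UMIs were summed over the classical monocytes of each library and scaled to counts per 1000000 (CPM). Log2 ratios carry exact conditional binomial intervals at 95%, levels exact Poisson intervals and shares exact Clopper-Pearson intervals, all for counting error only. A gene at 0 was set against a floor of 3 counts per library. With 1 library per group no test between groups was made, and cells were not used as replicates. In each comparison the text names the 10 genes per direction with the largest ratio, ranked by the bound nearest to 0, among those with at least 50 UMIs and 50 CPM. Not named are genes of the rule, Xist and Y-linked genes, predicted genes, those for ribosomal proteins, haemoglobins, immunoglobulins, T cell receptors and mitochondrially encoded products, and genes under 20% of their level in neutrophils, T cells or B cells. From each of 18 lists, drawn from general knowledge, it names, by that bound, at most the 4 members furthest up and the 3 furthest down, not all of which are printed. Some genes that the rule names are not reported here. Gbp5, Fcgr1, Tnf, Il6, Il12b, Cxcl2, Rela, C1qc, Cd74, F3, Camp, Ngp, Ltf, Ctsg and Ifi204 in HDCA+CLP were named after their values were seen. The members and the lists were chosen with earlier results of these data known. F13a1 in the coagulation list and Csf1r in the migration list are genes of the rule that chose the cells. Their part in those lists is a description only. Promoters came from the RefSeq table of GRCm38.p6, another build than mm39, and carry that table's coordinates. Ratios, intervals and shares were tested on simulated data. Python 3.11.15, NumPy 2.4.6, SciPy 1.17.1, pandas 2.3.3, scikit-learn 1.9.0 and matplotlib 3.10.9 were used. Alternatives changed the limits on cells, doublets, scaling and the UMI minimum.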

Additional observations from a re-analysis of the deposited data

How the results depend on the processing

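The direction of the median was kept under all 14 alternatives for 15 of 18 lists in CLP against Sham and 14 of 18 in HDCA+CLP against CLP, and 9 of 125 and 10 of 132 named genes, counting those whose interval excluded 0, changed sign under an alternative. Named genes were not run under the changed UMI minimum. Further genes whose intervals included 0 crossed it too. They were Gbp9 (-0.26, up to 0.01) in CLP against Sham, and in HDCA+CLP against CLP Cd80 (0.24, down to -0.23), Soat1 (0.11, down to -0.04), Plaur (0.04, down to -0.01), Tnip1 (0.00, down to -0.19) and Jund (-0.05, up to 0.02). The mitochondrial limit of 5% gave shares of 3.29% in Sham and 6.59% in CLP, and an S100a8 and S100a9 limit of 2% gave 5.30% in CLP and 1.86% in HDCA+CLP. Counts past 2-fold followed the UMI minimum. With no filter, 2469 genes were lower in CLP, and 782 were higher and 514 lower in HDCA+CLP. At 200 UMIs, 543 were higher and 548 lower in CLP, and 13 higher and 30 lower in HDCA+CLP. The mean over cells gave 105 genes higher in HDCA+CLP, and leaving out cells with cell cycle transcripts gave 619 higher in CLP. Size factors moved the median of all genes from -0.15 to -0.00 in CLP against Sham. For the values that changed sign the cause was not tested. In CLP against Sham the MHC class II median was 0.64 without called doublets, 0.58 at a minimum of 100 UMIs and 0.59 without cells with other markers. The migration median was 0.07 with size factors and 0.08 without cells with other markers, and the non-classical median -0.14 with no filter. Log2 ratios without called doublets were 0.24 for Bst2, 1.94 for Arg1 and 2.85 for Mrc1. Without cells with cell cycle transcripts they were -0.10 for Thbs1 and -1.19 for Cenpf. Without cells with other markers they were -0.51 for Ms4a3, 0.26 for Bst2, 1.88 for Arg1, 1.30 for Mrc1, 0.59 for H2-DMb1, -0.07 for Thbs1, -0.92 for Elane and -1.34 for Mpo. In HDCA+CLP against CLP the immediate early median was -0.02 without called doublets, -0.04 with size factors and -0.01 with reduced totals. Size factors gave -0.01 for the type I interferon and coagulation medians. The inflammatory median was 0.04 without cells with cell cycle transcripts and 0.01 without cells above 30000 UMIs, an alternative chosen after seeing the data. Without cells with cell cycle transcripts the ratios were -1.16 for Hist1h1b, -0.03 for Fcer1g, -0.94 for Top2a, -1.73 for Mki67, 0.29 for Ube2c, 0.52 for Cenpf and 0.40 for Birc5. Without cells with other markers they were -0.19 for Ppbp, -0.60 for Pf4, -0.44 for Cxcl10, 0.68 for Ube2c, 1.13 for Cenpf and 0.31 for Birc5, and without cells above 30000 UMIs 0.01 for Ube2c and 0.39 for Cenpf. No paired analysis was possible because each group has 1 library, which also leaves the spread between animals unmeasured. Depth limits the Sham values most, with 158 cells.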
